A study of Homo sapiens with 12 samples.

Results

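The genes described here are the neighbours of MYC on the long arm of human chromosome 8, the band known as 8q24. They were chosen by position: every gene of the deposited table whose first listed position is on chromosome 8 and whose exons lie between bases 123000000 and 131000000 of GRCh38, leaving out MYC, SQLE and NDUFB9. That gave 100 of the 38516 genes in the table, 27 of them protein-coding. The values came from RNA sequencing of 12 libraries from KYSE150 and KYSE510, established cell lines of human esophageal squamous cell carcinoma, a cancer of the lining of the gullet. Each line was given as control cells and as cells in which HCP5, a long non-coding RNA gene, was silenced, with 3 libraries in each of the 4 groups. The labels leave the prefix sh of the library titles unexplained and give neither the reagents nor whether the cells were clones or pools. Nothing in the labels says that the replicates were separate cultures, so p-values measure the spread between these libraries, which may be technical.

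MYC encodes a transcription factor that drives growth and division, and its surroundings are unusual: a gene-poor stretch holds many enhancers and the long non-coding RNAs that are transcribed from them. PVT1, the long non-coding RNA gene directly downstream of MYC, hosts several microRNAs, and its promoter is known to compete with that of MYC for shared enhancers in some cells. Gain of this chromosome band is a common event in carcinomas, esophageal squamous cell carcinoma among them. Further out on the upstream side lie genes with unrelated tasks, such as protein quality control in the endoplasmic reticulum, chromatin regulation and ubiquitin signalling.

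Libraries held 20035025 to 28202422 reads assigned to genes, and in KYSE150 every silenced library was deeper than every control. All 8 squamous markers listed were detected in both lines, with summed levels of 982 to 2864 RPKM (reads scaled to the exon length of the gene and to the assigned reads of the library) in KYSE150 and 1329 to 2926 in KYSE510. Among them PKP1, a protein of desmosomes, was at 6.92 to 15.1 RPKM in KYSE150 but at 0.0255 to 0.155 in KYSE510. The 4 leukocyte and 5 fibroblast markers stayed under 1 RPKM in all libraries, and of 3 endothelial markers only CDH5, in KYSE510, exceeded it. HCP5 itself was low. In KYSE150 it stood at 0.779, 0.745 and 0.786 RPKM in controls and at 0.315, 0.418 and 0.579 in silenced libraries. The KYSE510 controls had 0.914, 1.85 and 1.40 RPKM, and the silenced KYSE510 libraries 0.505, 0.951 and 0.948. The HCP5 levels did not overlap in KYSE150 and overlapped in KYSE510. With limma on log2(RPKM + 0.5), HCP5 differed by -0.45 (SE 0.20, adjusted p = 0.267) in KYSE150 and by -0.53 (SE 0.20, adjusted p = 0.646) in KYSE510, so neither change passed the threshold of 0.05. All log2 differences below are on this scale, which understates the change of low genes, and all adjusted p-values are Benjamini-Hochberg values from limma over 17823 genes.

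Of the 100 genes, 42 had at least 0.5 RPKM in at least 3 libraries and were tested, 21 of them protein-coding. Of the other 58, 4 had no read in any library, 33 had 1 to 11 reads over all 12 libraries together, and 21 had more. Among these untested genes the highest group mean was 0.538 RPKM, for MTSS1 in silenced KYSE510. The filter was passed by 34 genes in KYSE150 libraries alone and by 42 in KYSE510 libraries alone, so 8 genes entered the test through KYSE510 and could hardly fail to be higher there: FAM83A-AS1, RP11-383J24.1, ZNF572, CASC8, RNU1-106P, MIR1206, RNU4-25P and MIR1207.

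The contrast that dominated this chromosome band was between the lines. Among controls, 31 of the 42 tested genes differed between KYSE510 and KYSE150, 28 of them higher in KYSE510 and 3 lower, where 62% of all genes tested differed, 28.3% higher and 33.7% lower. The total count was thus close to the background, while the direction was not split as in the whole table. The 28 include all 8 genes that entered the test through KYSE510, so part of this lean was fixed by the filter. The median difference of the 42 genes, these 8 included, was 0.85, against -0.07 over all genes tested. Without the filter, 38 of the 96 genes with any read were called, 35 of them higher, where 34.3% of all genes were called and 16.7% were higher. In bulk RNA, fewer cells that express a gene and less RNA per cell cannot be told apart, here as in every comparison that follows. For reference, MYC rose from 7.47 ± 2.58 RPKM (SD, n = 3) in KYSE150 controls to 67.5 ± 11.7 in KYSE510 controls, with SQLE, an enzyme of cholesterol synthesis, at 6.38 ± 0.808 and 40.7 ± 1.79.

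**Figure D1:**
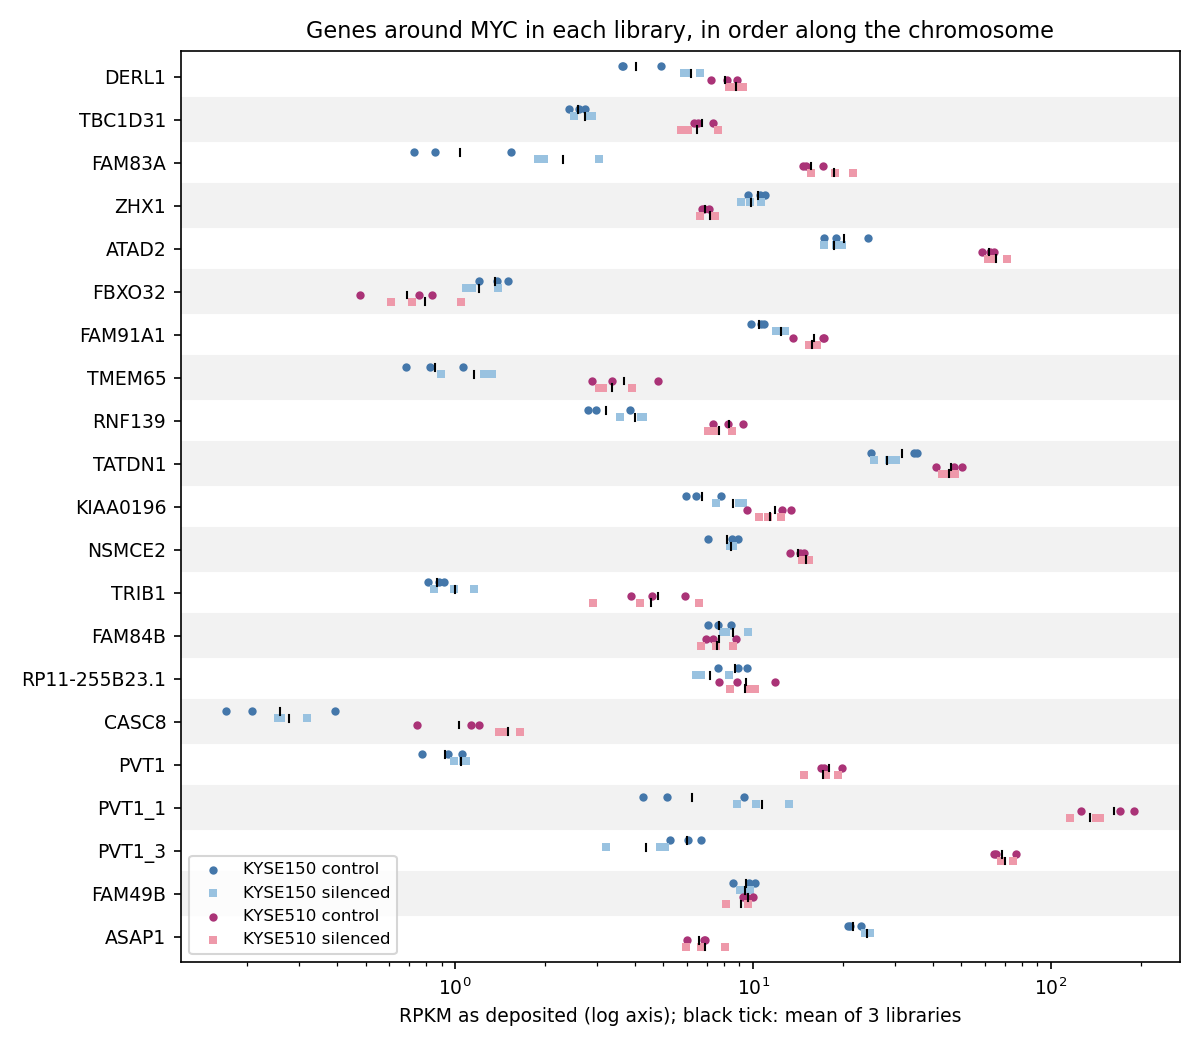
RPKM of 21 named genes on a log axis, in chromosome order from top to bottom, with 1 point per library, circles for control and squares for silenced, and a black tick at the mean of each group of 3. PVT1, its nested stretches PVT1_1 and PVT1_3, and FAM83A show the widest separation of the lines by group means. FAM84B and FAM49B overlap between the lines. ASAP1 is at 20.9 RPKM or more in every KYSE150 library and at 8.04 or less in every KYSE510 library.

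The long non-coding RNAs around MYC were led by PVT1, at chr8:127794533-128101253 on the plus strand, whose first base lies 53.1 kb past the end of MYC. PVT1 stood at 0.945, 0.771 and 1.05 RPKM in KYSE150 controls and at 17.2, 16.9 and 19.9 in KYSE510 controls. Silenced libraries gave 1.06, 0.994 and 1.09 in KYSE150 and 19.3, 14.8 and 17.5 in KYSE510. Every KYSE510 library was thus more than 10 times above every KYSE150 library, whatever the treatment. The ratio of the control means was 19.5, and the log2 difference was 3.70 (SE 0.11, adjusted p = 2.8e-10 with limma). Among silenced libraries it was 3.51 (SE 0.11, adjusted p = 4.5e-10), a second comparison on other libraries of the same 2 lines.

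CASC8, a long non-coding RNA gene upstream of MYC that carries cancer risk variants, was at 0.170, 0.208 and 0.395 RPKM in KYSE150 controls and at 0.746, 1.20 and 1.13 in KYSE510 controls. The 3 libraries of each group stood apart, with a log2 difference of 1.01 (SE 0.15, adjusted p = 9.99e-05 with limma). CASC8 entered the test through KYSE510, so its direction was nearly fixed by the filter. PRNCR1, a prostate cancer-associated transcript further upstream, showed 0.961, 0.758 and 0.935 RPKM in KYSE150 controls and 1.18, 0.927 and 0.822 in KYSE510 controls. Its levels overlapped, with a difference of 0.09 (SE 0.12, adjusted p = 0.536). Nearly all PRNCR1 reads may belong to RP11-255B23.1, a pseudogene inside it. If shared reads were counted for both, PRNCR1 outside that pseudogene had only 3 to 24 reads a library, 0.0127 to 0.0775 RPKM. Of the 15 long non-coding RNAs listed by role, 13 were in the set and only these 3 passed the filter. In KYSE510 controls 2 of them were higher, as were 28.3% of all genes tested. CCDC26 and LINC00861 were not among the genes the rule found.

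The other 10 of these RNAs were rare, and their reads are given as sums over the 3 libraries of a group. CASC11, which starts just upstream of MYC on the opposite strand, had 1 read in KYSE150 controls and 56 in KYSE510 controls, a depth-scaled ratio of 46.1 with an exact 95% interval of 7.94 to 1853. TMEM75, inside the span of PVT1, had 1 and 44 reads, a ratio of 36.2 with an interval of 6.17 to 1463. CCAT1, known as a colorectal cancer-associated transcript, had 0 and 8 reads. Its KYSE510 level was 2.20 times a floor of 3 reads over the KYSE150 group. Such ratios to a floor, here and below, leave out the counting error of the KYSE510 reads and are not lower bounds. PCR copies of a molecule count as separate reads, so the intervals here and below span counting error alone. CCAT2 had 0 and 5 reads in the control groups, 1.37 times the same floor in KYSE510, too few for a comparison. PCAT1, named for prostate cancer, had 3 and 11 reads, and its ratio of 3.02 had an interval of 0.797 to 16.9 that includes no difference. The remaining 5 were close to silent: CASC19, CASC21, PCAT2 and LINC00824 had 3 reads or fewer in every group, and LINC00977 had none in any library.

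Several short annotated transcripts lie within the span of PVT1 and followed its direction. PVT1_1, a conserved stretch of 194 bases at the very start of PVT1, was at 5.15, 4.27 and 9.31 RPKM in KYSE150 controls and at 126, 171 and 190 in KYSE510 controls, a log2 difference of 4.65 (SE 0.25, adjusted p = 3.4e-08 with limma). PVT1_3, a stretch of 95 bases at chr8:127890626-127890720, was at 5.25, 6.67 and 6.03 RPKM and at 64.3, 65.4 and 76.1, a difference of 3.42 (SE 0.15). Both lie wholly in exons of PVT1, and whether a read in shared bases was counted for both entries is not given in the sources used here. RP11-55J15.2, a processed pseudogene, was at 0.621, 0.808 and 1.46 RPKM in KYSE150 controls and at 22.9, 18.4 and 22.2 in KYSE510 controls, a difference of 3.92 (SE 0.18). Beside it RNU4-25P, a small nuclear RNA pseudogene, was at 0.434, 0.424 and 1.53 RPKM and at 21.3, 16 and 21.0, a difference of 4.04 (SE 0.26). RNU4-25P also entered the test through KYSE510. These pseudogenes lie on the strand opposite to PVT1 and share 46.1% and 27.4% of their bases with its exons, and the use of strand in counting is not given in the sources used here.

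The microRNA genes hosted by PVT1 were near the limit of detection. MIR1206 had 0 reads in KYSE150 controls and 1.41, 2.01 and 2.46 RPKM in KYSE510 controls, from 9 reads. That is 2.47 times the floor of 3 reads over the KYSE150 controls. MIR1207 had no read in any KYSE150 library and 0.478, 0.455 and 2.09 RPKM in KYSE510 controls, from 7 reads, 1.92 times the floor. RNU1-106P, also within PVT1, likewise rested on 7 reads in KYSE510 controls and 0 in KYSE150 controls. The 3 genes passed the threshold (limma adjusted p = 0.0011, 0.0016 and 0.025), but they are among the 8 that entered the test through KYSE510, and reads over these positions are not levels of mature microRNA.

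Genes of ubiquitin signalling and protein quality control were all 6 measured, with 5 higher and 1 lower in KYSE510 controls. Over all genes tested, 28.3% were higher and 33.7% lower. DERL1, a membrane protein that helps pass misfolded proteins out of the endoplasmic reticulum, was at 3.67, 3.62 and 4.90 RPKM in KYSE150 controls and at 7.20, 8.20 and 8.80 in KYSE510 controls, a log2 difference of 0.92 (SE 0.11, adjusted p = 3.1e-05 with limma). RNF139, a ubiquitin ligase of the same membrane, was at 2.96, 2.80 and 3.85 and at 7.34, 8.24 and 9.28 RPKM, a difference of 1.25 (SE 0.13). TRIB1, a pseudokinase that brings substrates to the ubiquitin ligase COP1, was at 0.881, 0.812 and 0.916 and at 4.56, 3.90 and 5.91 RPKM, a difference of 1.93 (SE 0.22). In each of these 3 genes every KYSE510 control lay above every KYSE150 control. NSMCE2, the SUMO ligase of a chromosome maintenance complex, rose from 8.17 ± 0.980 to 14.1 ± 0.802 RPKM (SD, n = 3), a difference of 0.76 (SE 0.09). WDYHV1, now NTAQ1, which deamidates glutamine at protein ends and so marks them for degradation, rose from 1.99 ± 0.501 to 4.43 ± 0.725 RPKM, a difference of 0.99 (SE 0.17). FBXO32, the F-box protein atrogin-1 known from wasting muscle, went the other way. It was at 1.20, 1.38 and 1.5 RPKM in KYSE150 controls and at 0.478, 0.835 and 0.757 in KYSE510 controls, lower by a log2 difference of -0.65 (SE 0.15, adjusted p = 0.0032).

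Among 11 genes of membranes, endosomes and the cytoskeleton, 7 were tested, with 4 higher and 1 lower in KYSE510 controls. Of all genes tested, 62% differed, 28.3% higher and 33.7% lower, so the number called in this list was close to the background. FAM83A, a scaffold protein linked to EGFR signalling, was at 0.853, 0.725 and 1.53 RPKM in KYSE150 controls and at 15.1, 14.7 and 17.1 in KYSE510 controls. The ratio of means was 15.1 and the log2 difference 3.43 (SE 0.20, adjusted p = 7.0e-08 with limma). AC068228.1, an antisense transcript listed in the table under a clone name, which shares 50.1% of its bases with FAM83A, was at 1.09, 0.940 and 1.87 and at 18.5, 17.2 and 20.3 RPKM, a difference of 3.44 (SE 0.21). FAM83A-AS1, an antisense transcript that shares no exon base with FAM83A, rose from 0.151 ± 0.0428 to 1.56 ± 0.387 RPKM, a difference of 1.65 (SE 0.18). FAM83A and both antisense genes differed in the same direction, although FAM83A and AC068228.1 may share reads if counting ignored strand. FAM83A-AS1 entered the test through KYSE510 and could hardly fail to be higher there.

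TMEM65, a protein of the inner mitochondrial membrane, was at 0.824, 0.685 and 1.06 RPKM in KYSE150 controls and at 2.89, 3.35 and 4.79 in KYSE510 controls, a log2 difference of 1.61 (SE 0.18). KIAA0196, now WASHC5, the strumpellin subunit of the WASH complex on endosomes, rose from 6.72 ± 0.956 to 11.8 ± 2.04 RPKM, a difference of 0.77 (SE 0.14). FAM91A1, a partner of vesicle tethers at the Golgi, rose from 10.5 ± 0.531 to 16 ± 2.10 RPKM, a difference of 0.58 (SE 0.09). All 3 passed the threshold, with limma adjusted p of 1.2e-05, 5.3e-04 and 2.0e-04. FAM84B, now LRATD2, had nearly equal means of 7.68 ± 0.690 and 7.68 ± 0.963 RPKM. FAM49B, now CYRIB, which binds RAC1 and restrains the branching of actin, had 9.47 ± 0.835 and 9.58 ± 0.363 RPKM. Their differences were -0.00 (SE 0.12, adjusted p = 0.987) and 0.02 (SE 0.09, adjusted p = 0.871).

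ASAP1, which switches off ARF GTPases at the cell edge, had the largest difference in favour of KYSE150 among the tested genes. It was at 21.1, 23.0 and 20.9 RPKM in KYSE150 controls and at 6.92, 6.02 and 6.83 in KYSE510 controls, a log2 difference of -1.64 (SE 0.10, adjusted p = 8.8e-08 with limma). The silenced libraries gave 24.7, 24.1 and 23.7 RPKM in KYSE150 and 6.70, 5.96 and 8.04 in KYSE510, so all 6 KYSE150 values were above all 6 KYSE510 values. The 4 genes of this group that did not reach the filter had few reads in both lines. GSDMC, a pore-forming gasdermin, had 18 reads over KYSE150 controls and 69 over KYSE510 controls, a ratio of 3.16 with an exact 95% interval of 1.86 to 5.64. MTSS1, which bends membranes, had 55 and 193 reads, a ratio of 2.89 with an interval of 2.13 to 3.97. FER1L6, of the ferlin family, had 1 and 15 reads, a ratio of 12.4 with an interval of 1.90 to 520, and ANXA13, an annexin of intestinal and kidney epithelium, had 0 and 3.

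Of 4 genes of the nucleus and of transcription, 3 were tested. ATAD2, a bromodomain protein of chromatin that acts as a coactivator for MYC and other factors, was at 18.9, 24.3 and 17.4 RPKM in KYSE150 controls and at 64.2, 58.6 and 62.3 in KYSE510 controls, a log2 difference of 1.60 (SE 0.11, adjusted p = 3.2e-07 with limma). ZNF572, a zinc-finger gene, had no read in any of the 6 KYSE150 libraries. It entered the test through KYSE510 and could only be higher there. ZNF572 was at 0.419, 0.592 and 0.566 RPKM in KYSE510 controls, from 133 reads. That is 36.5 times a floor of 3 reads over the KYSE150 controls. ZHX1, a homeobox and zinc-finger repressor, fell from 10.4 ± 0.680 RPKM in KYSE150 controls to 6.88 ± 0.192 in KYSE510 controls, a difference of -0.55 (SE 0.08, adjusted p = 1.2e-04). POU5F1B, a retrogene of the stem cell factor POU5F1, had 4 and 41 reads, a ratio of 8.44 with an exact 95% interval of 3.06 to 32.4.

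Of the RNA and DNA enzymes, TATDN1, a nuclease of the TatD family, was higher in KYSE510 controls, at 46.2 ± 4.78 RPKM against 31.7 ± 5.84 in KYSE150 (log2 difference 0.55, SE 0.13, limma adjusted p = 0.0034). TRMT12, which makes a modified guanosine in phenylalanine tRNA, was at 15.4 ± 1.35 against 13.6 ± 1.99 RPKM, a difference of 0.18 (SE 0.12, adjusted p = 0.210) that did not pass. RP11-158K1.3, antisense to TATDN1, was at 1.44 ± 0.282 against 0.761 ± 0.0936 RPKM (difference 0.61, SE 0.13). TBC1D31, a centrosomal protein, rose from 2.58 ± 0.161 to 6.74 ± 0.549 RPKM, a difference of 1.23 (SE 0.11). C8orf76 rose from 11.9 ± 0.932 to 14.0 ± 0.459 RPKM, a difference of 0.23 (SE 0.07, adjusted p = 0.015), which was lost among silenced libraries (0.06, SE 0.07, adjusted p = 0.504). RP11-557C18.3, antisense to DERL1, rose from 3.02 ± 0.479 to 7.84 ± 2.45 RPKM, a difference of 1.21 (SE 0.21). KLHL38, of the kelch-like family, had 9 reads in KYSE150 controls and 6 in KYSE510 controls, too few for a comparison.

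The other genes that reached 1 RPKM in some group showed no called difference between controls. ZHX1-C8orf76, a readthrough gene, had 17.5 ± 1.68 RPKM in KYSE150 and 17.2 ± 0.250 in KYSE510. It shares 67.3% of its bases with C8orf76 and 13.8% with ZHX1 on the same strand. Its reads there cannot be told from theirs, so this is no level of a readthrough transcript. KIAA0196-AS1 had 2.51 ± 0.20 and 3.0 ± 0.889, and RP11-473O4.5, antisense to FAM49B, had 1.16 ± 0.222 and 0.753 ± 0.248. RP11-103H7.5, which lies wholly inside FAM84B, had 5.23 ± 0.694 and 5.89 ± 0.588 RPKM. RP11-255B23.1, a processed pseudogene inside PRNCR1, had 8.70 ± 0.994 and 9.45 ± 2.13 RPKM. The paired microRNA entries MIR548AA1 and hsa-mir-548d-1, which cover the same 97 bases on opposite strands, rested on at most 7 reads a library, with means of 0.805 and 1.21 RPKM for the first and 0.654 and 0.932 for the second.

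Along the chromosome the difference between the lines was not even. Segments were drawn after the values were seen and so receive no test. Among all genes tested, 28.3% were higher in KYSE510 controls and 33.7% lower. The segments of 3 and 4 genes are too small to set against these shares. From RP11-557C18.3 to TRIB1, the upstream end, 19 of 26 tested genes were higher in KYSE510 controls and 2 lower, with a median difference of 0.77, counting 3 of the 8 genes that entered the test through KYSE510. From FAM84B to RP11-255B23.1, 0 of 4 were called, with a median of 0.09. From CASC8 across PVT1 to MIR1207, 9 of 9 were higher, with a median of 3.42 and a range of 1.01 to 4.65, but CASC8, RNU1-106P, MIR1206, RNU4-25P and MIR1207 entered the test through KYSE510, and 7 of the 9 lie within the span of PVT1, so this count is a description only. From RP11-473O4.5 to ASAP1, the downstream end, 0 of 3 were higher and 1 was lower.

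Genes outside the window showed where the difference went on. In the 8 Mb before it, 19 of 20 tested genes were higher in KYSE510 controls, with a median log2 difference of 1.86. In the 8 Mb after it, 3 of 10 were higher and 5 lower, with a median of -0.20. Over the rest of chromosome 8, 164 of 540 were higher and 156 lower, with a median of -0.01. All genes tested had 28.3% higher, 33.7% lower and a median of -0.07. The median of 0.85 inside the window, counting the 8 genes that entered through KYSE510, lay between those of the upstream and the downstream flank. Flank genes that entered the test through KYSE510 were not counted apart. Neighbouring genes on a chromosome are not independent, and the medians are given as descriptions.

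**Figure D2:**
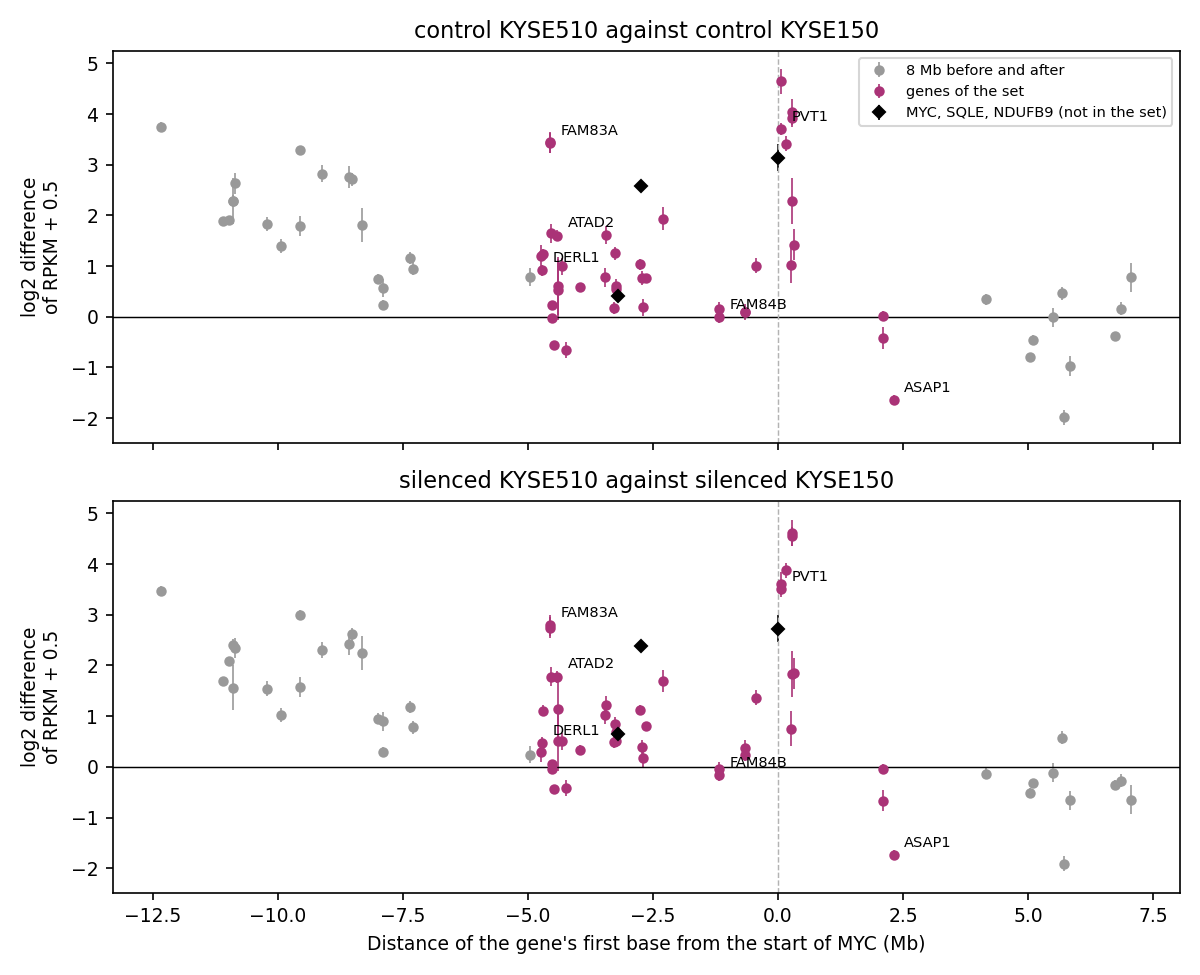
Log2 difference between KYSE510 and KYSE150 (vertical axis, log2 of RPKM + 0.5, bar 1 SE) against the distance of each tested gene from the start of MYC in Mb, for control libraries above and silenced libraries below. Purple points are the 42 tested genes of the set, grey points the genes in the 8 Mb on either side, and black diamonds MYC, SQLE and NDUFB9. The points around PVT1 reach 4.65 in controls, and the 3 genes at the right end of the set lie near or under 0.

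The line comparison was repeated in the silenced libraries. There 30 of 42 genes were called, 26 higher and 4 lower in KYSE510, where 64.1% of all genes were called, 24.2% higher and 39.8% lower. The median of the 42 genes was 0.72, against -0.19 over all genes. The 42 again include the 8 genes that entered the test through KYSE510. Of the genes called higher, 25 were shared between the 28 of the control comparison and the 26 of the silenced comparison. All 3 genes lower among controls, ZHX1, FBXO32 and ASAP1, were among the 4 lower among silenced libraries. C8orf76, RNU1-106P and RP11-557C18.3 were called in controls alone. TRMT12 (0.49, SE 0.12, limma adjusted p = 0.0033) and RP11-473O4.5 (-0.66, SE 0.21, adjusted p = 0.016) were called in silenced libraries alone.

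Silencing of HCP5 was the study's own contrast, and its title links HCP5 to MYC. In KYSE150, 0 of the 42 genes passed the threshold with limma, where 0.499% of all genes did. At an unadjusted p under 0.05 there were 12 of 42, against 18.1% of all genes, and voom on the recovered reads called 1, where it called 0.718% of all genes. With libraries taken as paired by replicate number, as a block, 5 of 42 were called, all higher in silenced cells, where 6.7% of all genes were called. The 5 were FAM83A, AC068228.1, DERL1, RP11-557C18.3 and PVT1_1. Without KYSE150 control replicate 3, the unblocked fit called 6, with 5 higher and 1 lower, where 7.31% of all genes were called.

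DERL1 was at 3.67, 3.62 and 4.90 RPKM in KYSE150 controls and at 5.88, 6.0 and 6.64 in silenced libraries. Its silenced values all lay above its controls, with control replicate 3 the nearest to them. Its log2 change of 0.56 (SE 0.11) missed the threshold (limma adjusted p = 0.061). Under the replicate block the adjusted p was 0.0187. In KYSE510 the values were 7.20, 8.20 and 8.80 RPKM in controls and 8.33, 8.71 and 9.22 in silenced libraries, a change of 0.11 (SE 0.11, adjusted p = 0.945). They overlapped, and each silenced library was above the control of the same number. The difference between the lines in this change was -0.44 (SE 0.16, adjusted p = 0.39).

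FAM83A was at 0.853, 0.725 and 1.53 RPKM in KYSE150 controls and at 1.90, 1.99 and 3.04 in silenced libraries, again without overlap and with replicate 3 the highest of each group. It changed by 0.88 (SE 0.20, limma adjusted p = 0.083). The replicate block gave 0.00866 for this p. In KYSE510 it was at 15.1, 14.7 and 17.1 RPKM and at 18.8, 15.7 and 21.7, a change of 0.24 (SE 0.20, adjusted p = 0.942) in which all 3 pairs were higher. The change differed between lines by -0.64 (SE 0.29, adjusted p = 0.41). Even silenced KYSE150 cells, at 2.31 ± 0.633 RPKM, remained far under KYSE510 controls at 15.7 ± 1.31.

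AC068228.1 and RP11-557C18.3, on the strand opposite to FAM83A and DERL1, share exon bases with them. AC068228.1 was at 1.09, 0.940 and 1.87 RPKM in KYSE150 controls and at 2.15, 2.65 and 3.82 in silenced libraries, a log2 change of 0.91 (SE 0.21, limma adjusted p = 0.079, and 0.0109 with the block). RP11-557C18.3 was at 2.95, 2.57 and 3.52 RPKM and at 5.24, 5.96 and 7.30, a change of 0.92 (SE 0.21, adjusted p = 0.084, and 0.0187 with the block). In KYSE150 both had all silenced libraries above all controls, and in KYSE510 both overlapped. C8orf76, FAM91A1 and ASAP1 also had all silenced libraries above all controls in KYSE150, and PVT1_3 and RP11-55J15.2 had all below. The share of all genes without overlap was not counted. FAM83A-AS1, which shares no exon base with FAM83A, changed by 0.25 (SE 0.18, adjusted p = 0.485) in KYSE150. With strand use in counting not given, reads of DERL1 and FAM83A cannot be told from those of their antisense partners in the shared bases, so these are not 4 independent genes.

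Most other genes moved little in KYSE150. The median change of the 42 genes was 0.12, with 27 above 0, against a median of 0.08 over all genes tested. With each library centred on its median, 19 of 42 were above 0 and the median was -0.01, so the small upward lean depended on the scaling. RNF139 changed by 0.29 (SE 0.13), KIAA0196 by 0.33 (SE 0.14), TMEM65 by 0.29 (SE 0.18), FAM91A1 by 0.23 (SE 0.09) and C8orf76 by 0.24 (SE 0.07), with limma adjusted p between 0.14 and 0.41. ATAD2 changed by -0.09 (SE 0.11), TRMT12 by -0.27 (SE 0.12) and ASAP1 by 0.16 (SE 0.10), with adjusted p between 0.26 and 0.69. RP11-55J15.2, the pseudogene across PVT1, was at 0.621, 0.808 and 1.46 RPKM in controls and at 0.474, 0.441 and 0.462 in silenced libraries, from at most 8 reads in any of these 6 libraries (change -0.57, SE 0.18, adjusted p = 0.16). PVT1 itself changed by 0.13 (SE 0.11, adjusted p = 0.57), and MYC, for reference, by 0.27 (SE 0.27, adjusted p = 0.62).

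**Figure D3:**
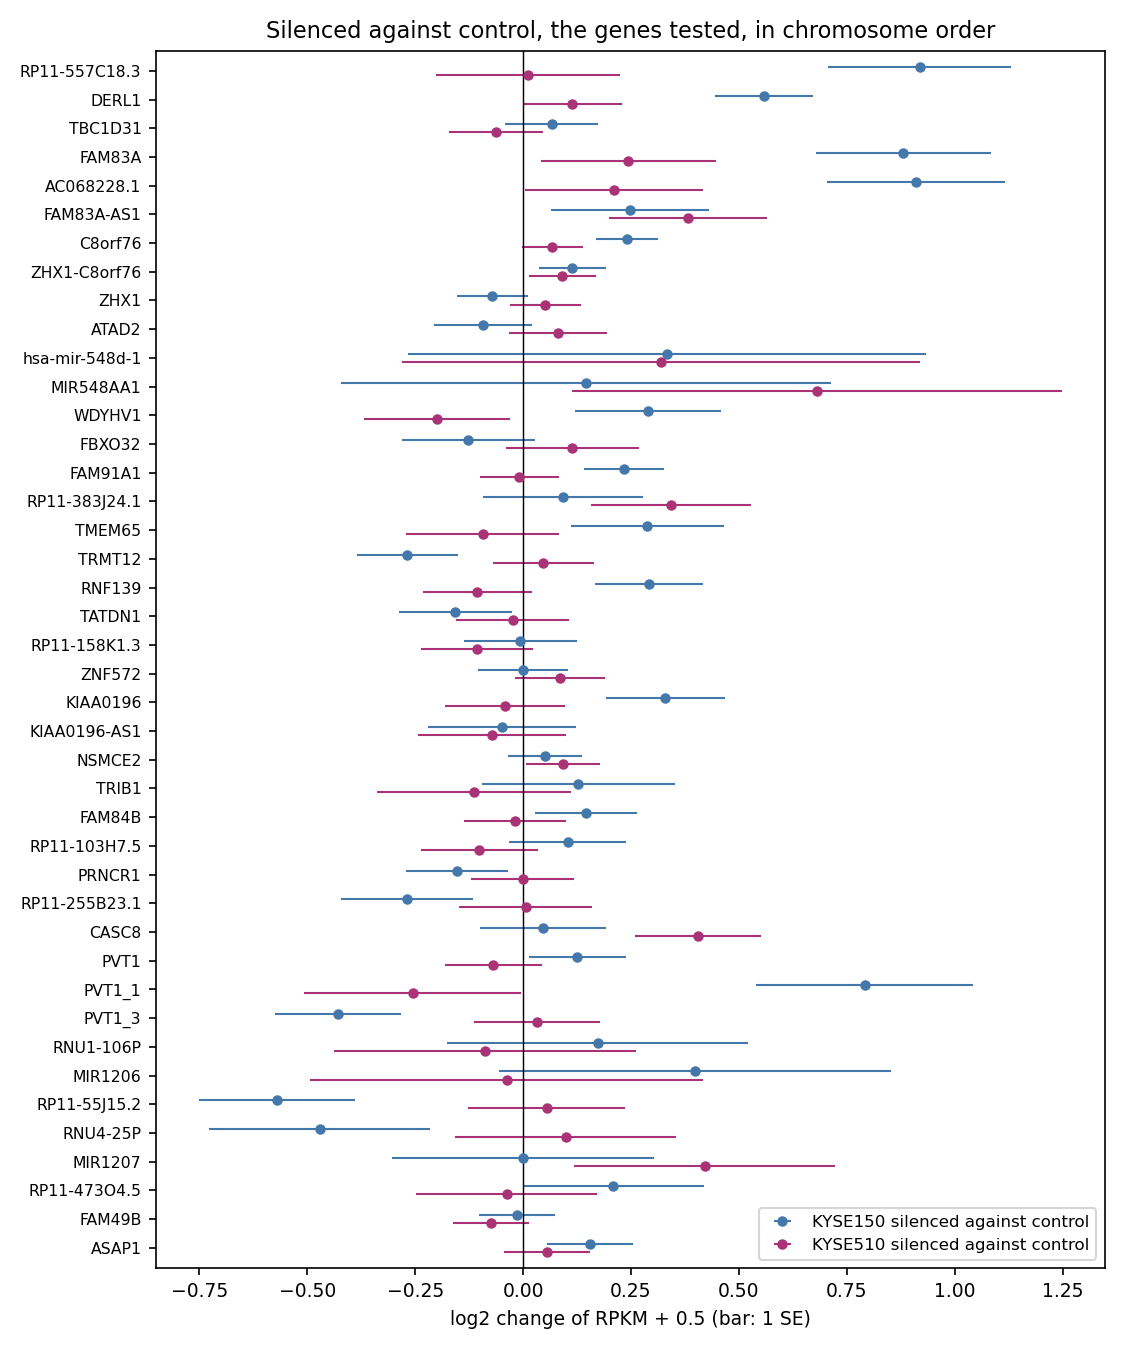
Log2 change of RPKM + 0.5 in silenced against control libraries for the 42 tested genes in chromosome order, blue for KYSE150 and purple for KYSE510, with bars of 1 SE. In KYSE150 FAM83A, AC068228.1 and RP11-557C18.3 lie near 0.9 and DERL1 at 0.56, while most other points lie within 0.5 of 0.

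In KYSE510, 0 of 42 genes passed the threshold with limma, where 0.0393% of all genes did, and 1 had an unadjusted p under 0.05, against 6.35% of all genes. Voom called 0, where it called 0.0281% of all genes, and the replicate block called 0, where 0.112% of all genes were called. The 1 gene was CASC8, at 0.746, 1.20 and 1.13 RPKM in controls and at 1.66, 1.46 and 1.41 in silenced libraries. All 3 silenced libraries were above all controls, with a log2 change of 0.41 (SE 0.15, adjusted p = 0.63). ZHX1-C8orf76 and MIR548AA1 also had all silenced libraries above all controls in KYSE510. In KYSE150 the change of CASC8 was 0.05 (SE 0.15, adjusted p = 0.91). PVT1 in KYSE510 changed by -0.07 (SE 0.11, adjusted p = 0.97). The median change of the 42 genes was 0.02, with 23 above 0.

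For the mean change over both lines, 0 of 42 were called with limma, where 0.539% of all genes were, and 6 had an unadjusted p under 0.05, against 11.5% of all genes. With the replicate block 4 were called, where 2.74% of all genes were, and without KYSE150 control replicate 3 the unblocked fit called 3, where 0.793% of all genes were called. The difference of the change between lines gave 0 of 42, where 0% of all genes were called, 8 at an unadjusted p under 0.05, against 12.2% of all genes, and 0 with voom. Voom with the block called 4, each with a lower change in KYSE510 than in KYSE150, where 7.59% of all genes were called and 5.45% had a lower change. The silencing contrasts share no control libraries between lines, while each line's contrast shares its controls with the comparison of the lines.

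PVT1_1 covers 3.53% of the exon bases of PVT1, and the reads counted for it equalled 19.2% to 42.9% of those counted for PVT1 in single libraries. This percentage is a ratio of the counts of 2 entries, and it is a share of the PVT1 reads only if reads in the shared bases were counted for both. In KYSE150 controls the ratio was 19.2%, 19.5% and 31.3%, and in silenced KYSE150 libraries 29.4%, 36.4% and 42.9%. The KYSE510 ratios were 25.8%, 35.7% and 33.9% for controls, and 26.0%, 27.7% and 29.5% after silencing. The ratio overlapped between treatments in both lines, though all 3 KYSE150 pairs were higher after silencing. The difference of means was 12.9 percentage points in KYSE150 (n = 3, exact two-sided permutation p = 0.2, adjusted p = 0.267 over 4 tests) and -4.07 in KYSE510 (exact p = 0.4, adjusted p = 0.4). These tests, like those of PVT1_3 below, did not use the replicate numbers.

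These ratios rest on few reads in KYSE150, where PVT1 had 87 to 161 reads a library, and on 1712 to 3000 in KYSE510. The 95% Wilson intervals treat the reads of the short entry as a part of those of PVT1. The interval in KYSE150 control replicate 1 ran from 12.8% to 27.8%, and that in KYSE510 control replicate 1 from 24.1% to 27.7%. PVT1_3, at 1.73% of the exon bases, had reads equal to a mean of 11.5% of the PVT1 count in KYSE150 controls and 7.25% in silenced libraries, without overlap (n = 3, exact permutation p = 0.1, the smallest that 3 against 3 can give, adjusted p = 0.267). In KYSE510 this ratio was 6.59% in controls and 7.10% in silenced libraries (exact p = 0.2, adjusted p = 0.267). On the RPKM scale PVT1_1 changed by 0.79 (SE 0.25) in KYSE150 (limma adjusted p = 0.16, and 0.0439 under the block), while PVT1_3 changed by -0.43 (SE 0.15, adjusted p = 0.19). The changes of PVT1_1 and PVT1_3 in KYSE150 had opposite signs, and that of PVT1 was 0.13. PVT1_3 rested on only 10, 13 and 13 reads in KYSE150 controls and on 8, 13 and 13 in the deeper silenced libraries. Its read counts were thus nearly equal, and the opposite signs are a description only.

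**Figure D4:**
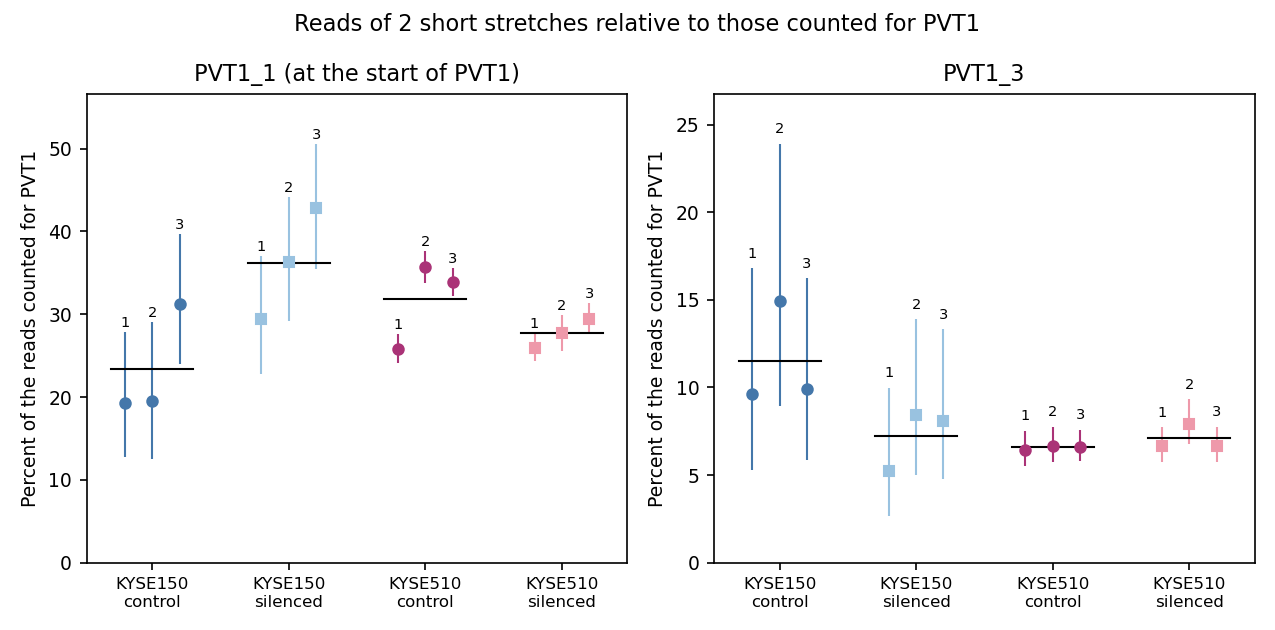
Reads of PVT1_1 (left) and PVT1_3 (right) as a percentage of those counted for PVT1, 1 point per library with its replicate number, bars for the 95% Wilson interval and a black line at the mean of each group. In KYSE150 the PVT1_1 ratio runs from 19.2% to 31.3% in controls and from 29.4% to 42.9% in silenced libraries, and the intervals are wide beside those of KYSE510.

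Counts of PRNCR1 and of a pseudogene inside it were close to equal. The pseudogene RP11-255B23.1 lies wholly inside the single exon of PRNCR1, on the other strand, and covers 1248 of its 12727 bases, or 9.81%. Its reads equalled 90.0% to 98.5% of those counted for PRNCR1 in each library, and 94.9% over all 12. RP11-103H7.5, which covers 8.96% of FAM84B, had reads equal to 5.77% to 7.39% of those counted for FAM84B. Whether reads in shared bases were counted for both entries is not known, and entries over the same bases did not always have equal counts: MIR548AA1 had 38 reads over all 12 libraries and hsa-mir-548d-1 had 29.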

How the data were processed

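The deposited table gives RPKM per gene for 12 libraries, with exon positions and lengths. The authors scaled these RPKM to gene length and to each library's gene-assigned total, as the values show: undoing this gave whole reads within 0.05 for every value. HISAT2, DESeq and GRCh38 are named in the submitters' processing notes, without their roles. Strand use in counting and filters are not given in the sources used here.

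The 17823 genes that reached 0.5 RPKM in 3 or more libraries were fitted as log2(RPKM + 0.5) with limma 3.58.1 in R 4.3.3 (4 group means, mean-variance trend, 8 residual degrees of freedom). P-values were two-sided and adjusted by Benjamini-Hochberg over all genes tested, with a threshold of 0.05. In a simulated KYSE150 comparison of 17790 genes this fit recovered 64% of genes changed by 1 on the log2 scale. It recovered 92% of those changed by 2, with 20 false calls. The simulation gave all genes the same spread and no replicate pairing, and changes smaller than 1 were not simulated. Its rates need not hold for the real libraries. Depth was 20035025 to 28202422 reads a library; ratios of reads have exact 95% intervals and shares Wilson intervals. Gene types came from GENCODE release 29 on GRCh38, by name for 62 genes and by position for 28, with 10 unmatched.

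Groups, lines and replicate numbers came from the labels. Deviations from the group mean correlated at 0.147 to 0.415 between same-numbered control and silenced libraries in all 6 pairs. Other-numbered ones correlated at -0.385 to 0.184. The 0.184 was KYSE150 control 2 with silenced 1, above the 0.147 of control 2 with silenced 2. The numbers, taken from the titles, were held to pair libraries within a line, though that pair was not set apart. The comparison of the lines lies between these blocks and has no blocked value. Genes are named where a group mean reached 1 RPKM, where they are known transcripts around MYC, or where a silencing contrast called them. The genes and the role lists were chosen with earlier results of these data known. Alternatives were the block, other pseudocounts and filters, median centring, quantile normalization, voom on recovered reads, fits to the 6 libraries compared and leaving out each library. No sequence is printed.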

Additional observations from a re-analysis of the deposited data

How the results depend on the processing

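In KYSE150 0 genes were called, against 5 with the replicate block (6.7% of all genes), 8 for voom with the block (19.0% of all genes), and 1 each with median centring (0.651%), quantile normalization (0.864%) and voom (0.718%). Leaving out 1 library gave 0 to 6, with 6 without KYSE150 control replicate 3 (7.31% of all genes) and 1 without KYSE510 control replicate 1 (0.609%). The mean change over lines gave 0, against 4 with the block (2.74% of all genes), 4 for voom with the block (7.27%), and 1 each with median centring (0.696%) and quantile normalization (0.780%). Leaving out 1 library gave 0 to 3. The difference of the change between lines gave 0, against 4 for voom with the block (7.59% of all genes). The block changed no call in KYSE510. The change of PVT1 in KYSE150, not called, turned to -0.0041 with median centring. Among control lines the count stayed at 29 to 31 when a library was left out. There 600 of 608 values under alternatives, over 31 genes, kept direction and call, and 8, all for C8orf76 or RNU1-106P, kept direction only. Settings in which a gene failed the filter gave no value. With the main fit, RP11-383J24.1 had 16 settings, RNU1-106P, MIR1207 and ZNF572 19, CASC8 20, and the others 21. Among silenced lines 129 of 138 values over 7 genes kept direction and call, with calls lost for RP11-473O4.5 and gained for C8orf76, RNU1-106P and RP11-557C18.3. Depth limits the genes under 0.5 RPKM, most with fewer than 12 reads in all. The cause of these shifts was not tested.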
